A study of Mus musculus with 4 samples.

Results

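The 30 genes described here are Sox, T-box and GATA transcription factor genes: 14 Sox genes, 12 T-box genes and 4 GATA genes, out of 21887 protein-coding genes of the mouse gene table (GRCm38). ATAC-seq, which marks open chromatin by the places where a transposase inserts sequencing adapters, was done in mouse embryonic stem cells. There were 2 wt and 2 Hox-/- libraries. The series title describes the mutant as lacking all Hox function, and the Hox-/- library names carry the tag BADC. Both genotypes were grown in the same medium with serum, leukaemia inhibitory factor, the GSK-3 inhibitor CHIR99021 and the MEK inhibitor PD0325901, so no condition without these inhibitors was compared. The labels do not say whether the 2 libraries of a genotype are separate cultures or whether the mutant is a single clone, so the spread between libraries may be technical.

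A member's peaks were all listed peaks that overlapped the gene body or 10 kb on either side, called its window. The windows held 349 and 353 of the 213705 and 216795 peaks of wt replicates 1 and 2. In Hox-/- replicates 1 and 2 they held 315 and 333 of 191704 and 200214 peaks. The lists carry no read counts, so the depth is unknown. Relative depth, estimated from the background at the peaks and set to 1 in wt replicate 1, was lowest in Hox-/- replicate 1 (0.640) and at least 0.941 elsewhere. As a check of the cell type, gene-end peaks (summit 1 kb or less from an end) were listed in all 4 libraries for 8 of 8 stem cell markers, such as Pou5f1 and Nanog, for 3 of 5 fibroblast markers and for 1 of 4 markers of other lineages. The share over all protein-coding genes was 67.1%, so the fibroblast count does not set those genes apart.

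Sox proteins bind DNA through an HMG box, T-box proteins through the T domain that gave the family its name, and GATA proteins through zinc fingers that recognise the letters GATA. In the embryo these genes direct lineages: SoxE genes the neural crest, glia and cartilage, SoxC genes neural and mesenchymal progenitors, Tbx genes the heart, limbs and pharyngeal arches, and Gata1 to Gata3 the blood. Most of these programmes start after the stem cell stage. In embryonic stem cells, CpG-rich promoters of silent developmental genes are known to be poised under Polycomb proteins. Open chromatin at such a gene is thus no measure of its transcription.

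The promoter sequences show what the start sites are made of. RefSeq promoter windows (GRCm38.p6, 250 bases before to 50 bases after a start) were matched for 24 of the 30 members, as 31 windows; Sox9, Sox10, Sox18, Tbx2, Tbx5 and Tbx15 had no entry. The 250 bases before the start are printed for 6 members, with windows from CpG-rich with a strong peak to CpG-poor without any. They are written 5′ to 3′ on the gene's strand, with every CpG in capitals. Tbx20 is a CpG-rich start with a strong peak in all 4 libraries. Sox12 holds the most CpGs of the 6 and has a strong peak in replicate 1 of both genotypes and a weaker one in replicate 2. For Gata2 the upstream start is printed, whose window is CpG-rich and overlaps no listed peak. A second Gata2 start overlapped a peak in all 4 libraries, ranking 110418 and 114792 in wt replicates 1 and 2. In Hox-/- replicates 1 and 2 it ranked 154320 and 71758. Gata1 is a CpG-poor start with a weak peak. The windows of Tbr1 and Tbx19 hold few CpGs and overlap no listed peak. At Tbr1 a summit still lay within 1 kb of the RefSeq start in all 4 libraries.
Tbx20 (GRCm38, chr9:24774304-24774553, minus strand): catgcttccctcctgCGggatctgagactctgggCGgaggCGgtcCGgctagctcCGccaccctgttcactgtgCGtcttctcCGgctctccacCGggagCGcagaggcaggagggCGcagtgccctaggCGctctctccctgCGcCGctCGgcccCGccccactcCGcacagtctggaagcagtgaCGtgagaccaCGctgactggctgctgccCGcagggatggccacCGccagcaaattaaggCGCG
Sox12 (GRCm38, chr2:152398047-152398296, minus strand): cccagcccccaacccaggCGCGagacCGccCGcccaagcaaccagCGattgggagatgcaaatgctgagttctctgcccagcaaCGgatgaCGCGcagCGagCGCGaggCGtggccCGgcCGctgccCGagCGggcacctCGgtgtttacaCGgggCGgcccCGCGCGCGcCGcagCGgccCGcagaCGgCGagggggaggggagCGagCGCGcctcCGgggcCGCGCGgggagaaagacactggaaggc
Gata2 (GRCm38, chr6:88193641-88193890, plus strand): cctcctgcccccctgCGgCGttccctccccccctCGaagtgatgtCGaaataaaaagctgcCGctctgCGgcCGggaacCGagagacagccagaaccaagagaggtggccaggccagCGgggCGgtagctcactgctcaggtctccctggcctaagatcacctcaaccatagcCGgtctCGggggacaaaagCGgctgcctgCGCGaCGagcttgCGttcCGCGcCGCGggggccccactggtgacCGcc
Gata1 (GRCm38, chrX:7967911-7968160, minus strand): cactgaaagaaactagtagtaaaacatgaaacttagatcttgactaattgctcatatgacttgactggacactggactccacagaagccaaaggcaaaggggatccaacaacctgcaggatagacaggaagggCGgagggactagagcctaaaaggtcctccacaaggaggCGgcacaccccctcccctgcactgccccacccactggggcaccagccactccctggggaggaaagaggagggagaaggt
Tbr1 (GRCm38, chr2:61804203-61804452, plus strand): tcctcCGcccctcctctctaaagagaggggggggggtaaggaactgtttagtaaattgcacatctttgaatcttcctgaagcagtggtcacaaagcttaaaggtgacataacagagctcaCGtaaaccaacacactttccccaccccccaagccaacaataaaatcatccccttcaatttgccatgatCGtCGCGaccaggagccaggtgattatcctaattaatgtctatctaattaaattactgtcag
Tbx19 (GRCm38, chr1:165160774-165161023, minus strand): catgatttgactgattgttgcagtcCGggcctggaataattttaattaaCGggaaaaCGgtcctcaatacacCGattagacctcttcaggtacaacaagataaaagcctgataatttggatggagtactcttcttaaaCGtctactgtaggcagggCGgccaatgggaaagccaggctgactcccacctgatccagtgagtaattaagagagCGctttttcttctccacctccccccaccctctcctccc
The printed stretches hold 22 CpGs at Tbx20, 35 at Sox12, 22 at Gata2, 2 at Gata1, 5 at Tbr1 and 7 at Tbx19.

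Over the whole 300 bases, the ratio of observed to expected CpG was at least 0.6 in 19 of the 31 member windows. Of these 19, 16 overlapped a peak in all 4 libraries, a share of 84.2% against 92.2% of the 10137 windows of all genes with that ratio. Of the 12 member windows under 0.6, 2 did so, 16.7% against 31.3% of 11126 windows. These 2 were Sox15 (ratio 0.24) and Gata1 (0.17). The 3 CpG-rich member windows that overlapped no peak in any library were the upstream start of Gata2 (0.90), a start of Tbx1 (0.73) and the outermost start of Sox6 (0.67). Several windows belong to 1 gene, 6 of them to Sox6, so the windows are not independent.

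**Figure D1:**
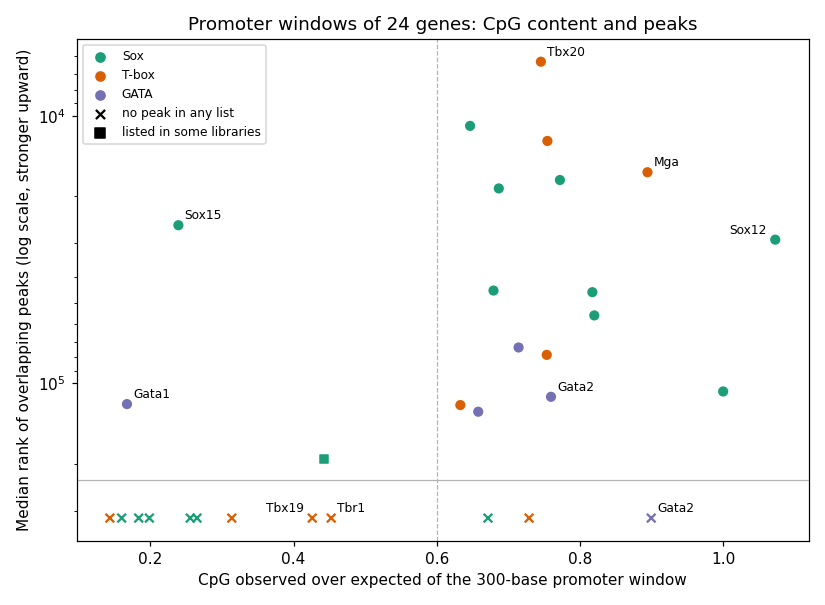
CpG content of the 31 RefSeq promoter windows of 24 members (x axis, observed over expected CpG; dashed line at 0.6) against the median rank of the overlapping peaks over the libraries that list one (y axis, log scale, stronger upward). Crosses under the horizontal line are windows without a peak in any list; 9 of these 12 lie under 0.6.

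The recognition motifs of the families themselves were searched on both strands of the same 300 bases. The Sox motif ACAAAG occurred in 7 of 31 member windows (22.6%) and in 16.8% of the windows of all genes, and ACAATG in 3 (9.68%) against 11%. Of the 7 windows with ACAAAG, 5 are starts of Sox6, and the others belong to Sox15 and Tbr1. The T-box motif AGGTGT was found in 4 (12.9%) against 12.7%. Of the GATA motifs, AGATAA occurred in 2 (6.45%) against 9.65% and TGATAA in 3 (9.68%) against 7.60%. The Tbx19 window held both GATA motifs and the Tbr1 window held ACAAAG once. The 2 motifs of a family differ by 1 letter and so cannot lie at the same place. Such matches describe letters and not bound sites.

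Most members had peaks at their gene ends. A peak summit within 1 kb of either end of the gene was listed in all 4 libraries for 26 of 30 members (86.7%), against 67.1% of all 21887 protein-coding genes. All 14 Sox genes, 9 of 12 T-box genes and 3 of 4 GATA genes were among them. Tbx5, Tbx19 and Gata1 had no such peak in any library (10.0% of members, against 27.1% of all genes), and Tbx4 had one in wt replicate 1 and Hox-/- replicate 2 only. For Gata1 the gene table begins upstream of the RefSeq start, and a peak at that start was listed in all 4 libraries. At Sox5 and Tbx10, which are among the 26, no summit lay within 1 kb of a RefSeq start in any library.

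The place and strength of the best peak in each window were examined next. A peak was ranked within its list by the authors' −log10 p, 1 being the strongest, and the best rank of a gene is that of the strongest peak in its window. The best peak lay at the gene's own end in all 4 libraries for 6 members (Sox6, Sox11, Sox21, Tbx10, Tbx18 and Tbx20), 20.0% against 36.1% of the 18538 genes with a peak in every library. It lay elsewhere in the gene body for 6, in the flanks for 11 and at the end of another gene for 3. For Sox9, Sox14, Sox18 and Tbx15 its place differed between libraries. Best ranks spanned 2 orders of magnitude, from 707 (Sox5, wt replicate 2) to 86758 (Gata1, Hox-/- replicate 1). A best rank among the 10000 strongest was reached by 43.3% to 46.7% of members in each library, against 39.5%, 39.6%, 39.8% and 39.6% of all genes in the 4 libraries.

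**Figure D2:**
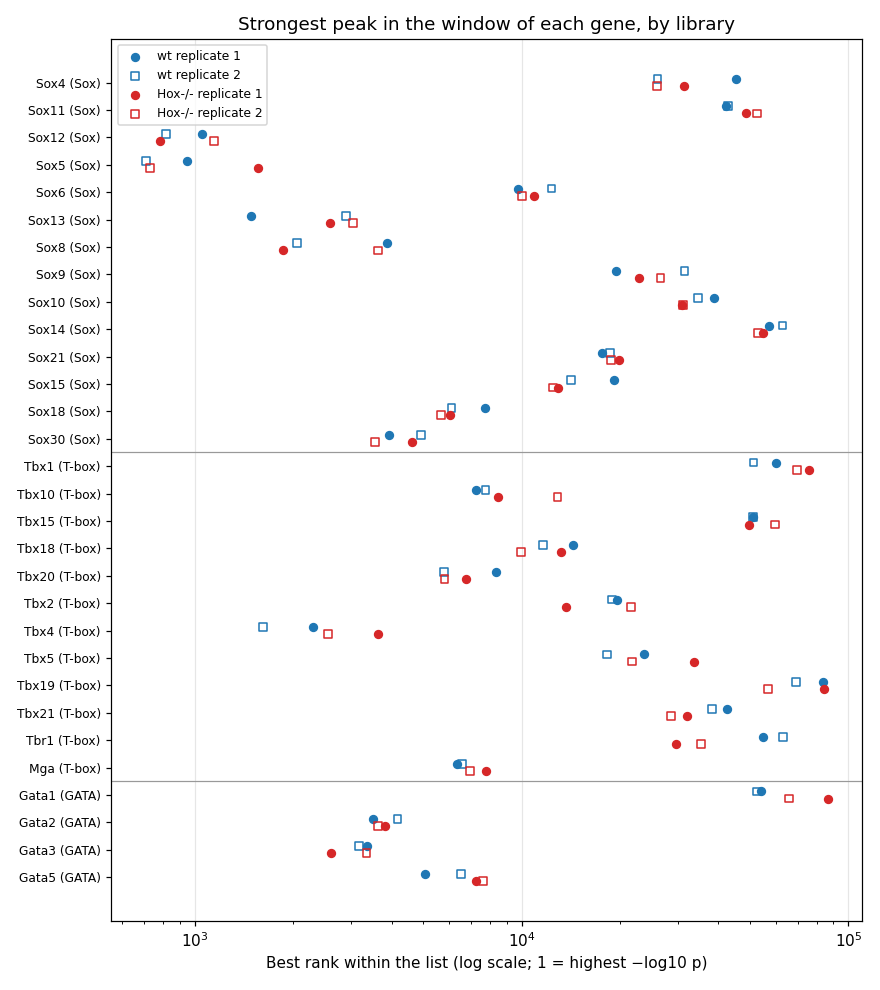
Best rank of any peak in the window of each of the 30 genes (x axis, log scale, 1 is the strongest of the list) in the 4 libraries; blue is wt, red is Hox-/-, filled circles are replicate 1 and open squares replicate 2. Horizontal lines separate Sox, T-box and GATA genes; for Tbr1 both red points lie left of both blue ones.

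Among the SoxC genes, which act in progenitors of neurons and mesenchyme, Sox12 had the strongest peak. Here and below the value of replicate 1 stands before that of replicate 2. The Sox12 peak ranked 1050 and 816 in wt and 784 and 1145 in Hox-/-, at chr2:152406060-152406665, in the flank upstream of the gene. The wt and Hox-/- ranks overlapped. The best peak at the Sox12 ends ranked 8183 and 5339 in wt and 6430 and 6969 in Hox-/-. In replicate 2 of both genotypes the interval that overlaps the promoter window itself is a weaker one, ranking 64843 in wt and 49993 in Hox-/-. Sox4 ranked 45324 and 26045 in wt and 31425 and 25937 in Hox-/-, with overlap. Different flanking peaks were best in replicates 1 and 2, so the spread within a genotype compares 2 peaks. At its own ends Sox4 ranked 47694 and 59659 in wt and 37787 and 42487 in Hox-/-, so both Hox-/- ranks were higher there. Sox11, a single-exon gene, had its best peak over its start, at 42137 and 42913 in wt and 48538 and 52476 in Hox-/-, so that both Hox-/- ranks lay below both wt ranks.

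The SoxD genes, whose products lack an activation domain and pair with SoxE proteins in cartilage and glia, differed in where their strongest peaks lay, inside the body of Sox5 and Sox13 and at an end of Sox6. Sox5, which spans 954 kb in the table, had 72 and 62 peaks in wt and 56 and 66 in Hox-/-, more than any other member. Its best peak, at chr6:144361010-144362016 in the body, ranked 945 and 707 in wt and 1565 and 730 in Hox-/-. Only Hox-/- replicate 1 stood apart there, and the groups overlapped. The Sox5 gene ends had much weaker peaks, with best ranks of 61842 to 77824 over the 4 libraries. Sox6, of 570 kb, had 21 and 24 peaks in wt and 22 and 24 in Hox-/-, a density of 0.386 per 10 kb that was the lowest of all members. Its strongest peak, at the upstream end of the gene in the table, ranked 9717 and 12339 in wt and 10898 and 10039 in Hox-/-. Sox13 ranked 1485 and 2908 in wt and 2595 and 3044 in Hox-/- for a peak in its body, at chr1:133397336-133398197.

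The SoxE genes specify neural crest, glia and, for Sox9, also cartilage and the testis. Sox8 ranked 3866 and 2057 in wt and 1859 and 3633 in Hox-/-, but this peak lies at an end of the neighbouring gene Lmf1. The peak at the Sox8 end itself ranked 11759 and 10078 in wt and 10051 and 12772 in Hox-/-. For Sox9 the best ranks were 19444 and 31524 in wt and 22860 and 26605 in Hox-/-. At its own end Sox9 ranked 29658 and 31524 in wt and 40727 and 37681 in Hox-/-, so the Hox-/- ranks were both lower there. Sox10, the marker of migrating crest, ranked 38692 and 34631 in wt and 31039 and 31170 in Hox-/- at its best peak, in the flank. Its end held a peak of the opposite order, at 64286 and 68202 in wt and 118083 and 90873 in Hox-/-.

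The remaining Sox genes belong to smaller groups. Sox21 and Sox14, SoxB2 repressors of neural genes, had 4 to 6 and 4 to 7 peaks per library. The Sox21 start ranked 17658 and 18672 in wt and 19897 and 18741 in Hox-/-, and the Sox14 window 56983 and 62825 in wt and 54746 and 52880 in Hox-/-. Sox18, a SoxF gene of blood vessels, ranked 7729 and 6098 in wt and 6058 and 5657 in Hox-/-. In wt replicate 1 and Hox-/- replicate 1 that peak was at an end of Gm29797, and its own end ranked only 110616 and 116985 in wt and 94924 and 92891 in Hox-/-. Sox15 is known to be expressed in embryonic stem cells, where its protein can pair with Oct4. Its window in the crowded segment with Mpdu1, Cd68 and Eif4a1 ranked 19224 and 14198 in wt and 12933 and 12483 in Hox-/-, at ends of those genes. Sox15's own end ranked 25592 and 21601 in wt and 20261 and 25695 in Hox-/-. Sox30, a gene of spermatids, ranked 3916 and 4914 in wt and 4605 and 3568 in Hox-/- for a peak in its flank.

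Among the T-box genes the strongest peak was inside Tbx4, a gene of the hindlimb and lung. At chr11:85900064-85900947 it ranked 2292 and 1617 in wt and 3641 and 2556 in Hox-/-. Both Hox-/- ranks were lower than both wt ranks, while the RefSeq promoter window of Tbx4 overlapped no peak in any library. Tbx5, the forelimb and heart counterpart, had only peaks away from its ends, the best ranking 23758 and 18275 in wt and 33660 and 21727 in Hox-/-. These overlapped between genotypes. Tbx2, their neighbour in the family and a repressor, ranked 19646 and 18859 in wt and 13679 and 21580 in Hox-/- at a flanking peak.

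The Tbx1 subfamily holds genes of the pharyngeal arches, somites and heart. Tbx20 had its best peak over the start printed above, at 8321 and 5772 in wt and 6752 and 5809 in Hox-/-, and the genotypes overlapped. Among peaks that overlap the promoter windows of T-box genes, that of Tbx18 came next, with 14315 and 11623 in wt and 13238 and 9954 in Hox-/-. Tbx15 ranked 50971 and 51127 in wt and 49682 and 59535 in Hox-/-, and Tbx1, the gene of the arches, 60020 and 51261 in wt and 75700 and 69474 in Hox-/-. Only Tbx1 of these 4 had both Hox-/- ranks on one side of both wt ranks. Tbx10 ranked 7234 and 7747 in wt and 8478 and 12881 in Hox-/-, at an end shared with Nudt8.

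Mga, which dimerises with Max and is widely expressed, had 14 and 17 peaks in wt and 17 and 16 in Hox-/-. Its best peak, at 6335 and 6564 in wt and 7759 and 6962 in Hox-/-, lay at an end of Mapkbp1. The Mga start printed in RefSeq ranked 16291 and 15927 in wt and 16262 and 16395 in Hox-/-, and these values overlapped. Tbx19, a pituitary factor, had the fewest peaks of the T-box genes on average, 3 or 4 per library, and best ranks of 83845 and 69060 in wt and 84064 and 56739 in Hox-/-. Tbx21, the T helper cell factor known as T-bet, had 9 peaks in every library. Its best peak ranked 42381 and 38344 in wt and 32134 and 28610 in Hox-/-, without overlap.

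Of the GATA genes, Gata3 and Gata2 had strong peaks close to, but not at, their starts. The Gata3 peak at chr2:9879277-9879958 ranked 3366 and 3172 in wt and 2607 and 3353 in Hox-/-, with its middle 1017 bp from the RefSeq start. The Gata2 peak at chr6:88189457-88190521, 3902 bp from the upstream start, ranked 3502 and 4169 in wt and 3821 and 3643 in Hox-/-. Both sets of ranks overlapped between genotypes. At the Gata2 ends themselves the best rank was 174360 to 197413, close to the end of the lists. Gata5, an endoderm and heart gene, ranked 5069 and 6509 in wt and 7240 and 7602 in Hox-/- at a flanking peak. On the X chromosome Gata1, the erythroid factor, had 2 peaks in each Hox-/- list and 3 and 4 in the wt lists. Its best rank was 53950 and 52565 in wt and 86758 and 65832 in Hox-/-, lower in both Hox-/- libraries for Gata1 and for Gata5 alike.

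**Figure D3:**
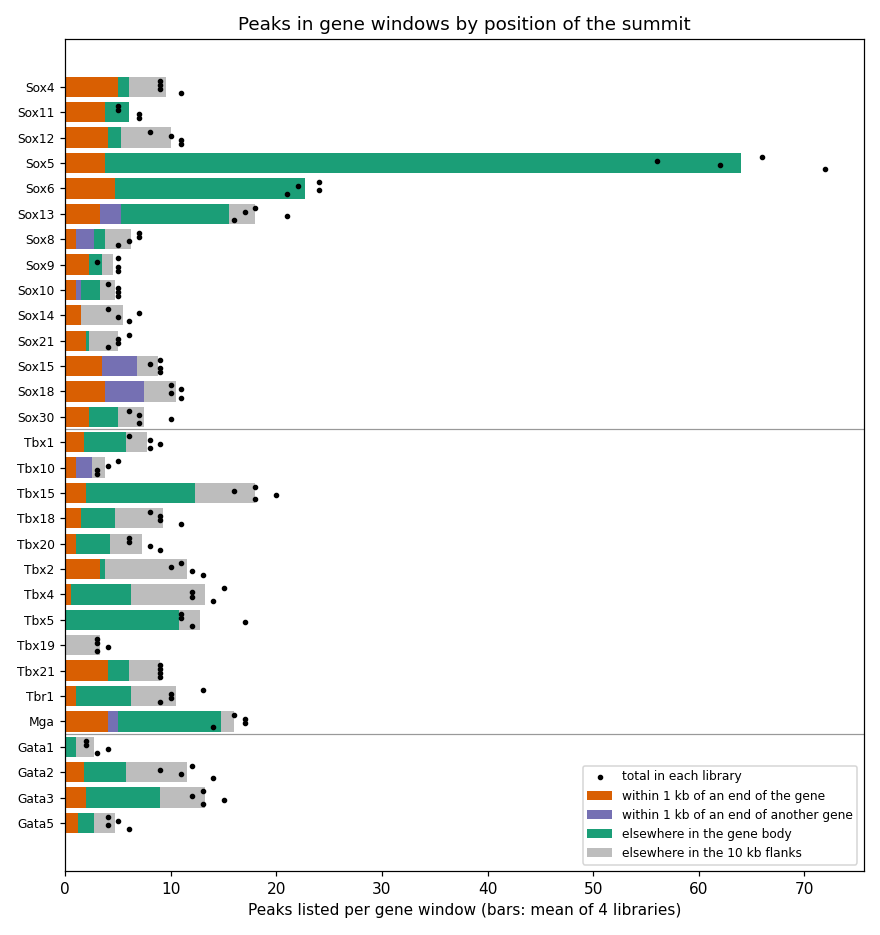
Number of listed peaks in the window of each gene (bars, mean of 4 libraries) by the position of the summit, with the total of each library as a black point. Peaks at the gene's own ends (orange) are a minority in most windows, and Sox5 stands out with 56 to 72 peaks.

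The 3 families were compared by the number and place of their peaks. Median window lengths were 25.2 kb for Sox, 45.7 kb for T-box and 35.3 kb for GATA genes. The median number of peaks per gene, as a mean over libraries, was 8.12 for Sox (range 4.50 to 64.0), 9.88 for T-box (3.25 to 18.0) and 8.12 for GATA (2.75 to 13.2), against 7 for all protein-coding genes. Per 10 kb of window the medians were 2.3, 1.66 and 2.08, against 1.5. The median share of distal peaks, those not at the gene's own end, was 67.1% for Sox (37.5% to 94.1%), 85.0% for T-box (55.6% to 100%) and 84.8% for GATA (73.7% to 100%). The highest share was that of Sox5 among Sox genes, of Tbx5 and Tbx19 among T-box genes and of Gata1 among GATA genes. Ends are those of the gene table, so peaks at RefSeq starts farther inside count as distal. This holds for the start peak of Gata1 and for some peaks of Gata5. The ranges overlapped, and no test was made because genes of a family are not replicates. The part of window length in the distal shares was not tested. Of the peaks in Sox windows 6.15% lay at ends of other genes, against 2.04% for T-box and 0% for GATA.

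The comparison of genotypes asked whether peaks at these genes are listed or ranked otherwise in cells without Hox function. Gene-end peaks specific to a genotype, meaning in both of its lists and in neither list of its counterpart, were found at 0 members; of all genes 0.64% had one in wt only and 0.187% in Hox-/- only. Merging the peaks of the 4 lists gave 316 regions in the member windows, of which 190 were listed in all 4 libraries, 60.1% against 59.0% of all regions on the autosomes and X. Of the 316, 14 (4.43%, against 3.82% of all regions) were listed in both wt libraries only and 4 (1.27%, against 1.23%) in both Hox-/- libraries only. With all 4 libraries both shares are near the background. Leaving out 1 library loosens the call. It gave 20 to 30 member regions in wt only (6.33% to 9.49%, against 6.58% to 9.65% of all regions). In Hox-/- only it gave 28 without Hox-/- replicate 1, the shallowest library (8.86%, against 5.64%), 17 without Hox-/- replicate 2 (5.38%, against 4.7%) and 8 or 9 without a wt library (2.53% and 2.85%, against 2.89% and 2.74%). All 18 were weak, the best rank of any being 106122, at Sox6.

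The wt-only regions fell in the windows of Sox5, Tbx5 and Tbx20, with 2 each, and of Sox9, Sox10, Sox11, Tbx2, Tbx4, Tbx18, Mga and Gata1, with 1 each. Judged by the weaker of the 2 wt ranks, the strongest lay at chr15:79145561-79145837 near Sox10 and ranked 123545 and 113567 in wt. The Hox-/- only regions were at Sox6 (106122 and 119872 in Hox-/-), Tbx15 (129037 and 170822), Sox10 (158858 and 171392) and Tbx2 (190911 and 164642). Absence from a list depends on depth, and the weakest lines of the longer wt lists have no counterpart by length in the Hox-/- lists. Peak numbers were also compared, and 6 members (20.0%) had fewer peaks in both Hox-/- libraries than in both wt libraries, against 19.1% of all genes, and 2 (6.67%), Sox8 and Tbx10, had more, against 3.18%. The part of depth in these counts was not tested.

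Best ranks were then compared between genotypes. Ranks from lists of different length and depth show an order within each list and are not a measure of accessibility between libraries. With 2 libraries a genotype the exact permutation test cannot give a two-sided p under 0.33, so none of the following passes 0.05. In 6 members (20.0%, against 20.7% of the 18538 genes with a peak in every library) both Hox-/- libraries ranked the best peak higher than both wt libraries: Sox10, Sox14, Sox15, Sox18, Tbx21 and Tbr1. In Sox18 this order holds for no single strong peak, since different peaks were best in replicates 1 and 2. Its Gm29797 region ranked 7729 and 8855 in wt and 6058 and 9931 in Hox-/-, and its flanking region 9050 and 6098 against 8461 and 5657, both with overlap. In Sox15 the Cd68 and Eif4a1 region ranked 19224 and 14198 in wt and 12933 and 16614 in Hox-/-, with overlap, and the Mpdu1 region was best in Hox-/- replicate 2. In 8 members (26.7%, against 19.1%) both Hox-/- libraries ranked the best peak lower: Sox11, Sox21, Tbx1, Tbx4, Tbx10, Mga, Gata1 and Gata5. The other 16 overlapped. With each rank expressed as a percent of its list, 2 members ranked higher (Tbr1 and Tbx21, against 11.6% of all genes) and 10 lower (against 30.2%). That scale moved the median log2 shift of all genes from 0.01 to −0.12. Ranked by the fold at the summit, 10 were higher (against 24.6%) and 6 lower (against 15.9%), so the balance of the directions depends on the ranking. It also depends on the window. In the gene body only, 8 were higher (against 20.0%) and 4 lower (against 19%), and with 25 kb windows 6 were higher (against 21.0%) and 4 lower (against 19.3%). By rank, by percent of the list and by fold, Tbr1 and Tbx21 were higher in Hox-/- each time, and Sox11, Tbx1, Tbx4, Gata1 and Gata5 lower each time. These measures order the same lists, and the share of all genes that keep their order was not determined. The log2 shift of the best peak turned toward Hox-/- with 25 kb windows for Sox11 (1.06) and Gata1 (0.14). In the gene body only it did so for Tbx1 (0.17). Tbr1, Tbx21, Tbx4 and Gata5 kept their sign under both windows.

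Ranks at the gene's own ends were compared in the same way. Of the 26 members with a gene-end peak in all 4 libraries, 5 (Sox4, Sox14, Sox18, Tbr1 and Mga) ranked higher in both Hox-/- libraries and 7 (Sox5, Sox9, Sox10, Sox11, Sox13, Sox21 and Tbx10) lower, where 20.0% and 17.0% of the 14696 genes with such a peak in all 4 libraries did so. Of these, Sox14, Sox18 and Tbr1 were also higher at the best peak, and Sox11, Sox21 and Tbx10 also lower. For the last 3 the best peak is the gene-end peak itself in all 4 libraries, and for Sox14 in 3 of them, so these are the same values. Mga and Sox10 had ends and best peaks in opposite orders. At the Mga ends the best ranks were 28271 and 25613 in wt and 17446 and 22606 in Hox-/-.

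Over the regions of the windows, 39 of 190 (20.5%, against 21.5% of all regions) ranked higher in both Hox-/- libraries and 43 (22.6%, against 19.6%) lower. As percent of the list these were 24 and 69 (against 11.8% and 31.3%). The median log2 shift, the mean log2 rank in wt minus that in Hox-/-, was 0.02 over the 190 regions and 0.02 over all regions. By family, 21 of 105 Sox regions were higher and 24 lower, 18 and 13 of 68 T-box regions, and 0 and 6 of 17 GATA regions. Ranked by the fold at the summit, 53 member regions were higher and 37 lower (against 22.9% and 17.9% of all regions), with 30 and 22 for Sox, 19 and 10 for T-box and 4 and 5 for GATA. As percent of the list the family counts were 12 and 37 for Sox, 12 and 23 for T-box and 0 and 9 for GATA. For Sox and T-box the balance of higher and lower regions thus turned with the ranking or the scale. For GATA more regions were lower than higher under all 3, by 1 region when ranked by fold. The percent scale moved the median shift of all regions from 0.02 to −0.12. The difference between the families was not tested.

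By −log10 p rank, the regions with the largest shifts toward Hox-/- were at Tbr1, Sox21 and Sox15. The Sox21 region at chr14:118230143-118230786 ranked 67348 and 72380 in wt and 48517 and 36431 in Hox-/-, a shift of 0.73. The Sox15 region at chr11:69662141-69662966, beside Mpdu1, ranked 22983 and 21885 in wt and 15038 and 12483 in Hox-/- (0.71). Toward wt the largest were in the bodies of Gata2, Sox5 and Sox13. The Gata2 region at chr6:88203869-88204990 ranked 66753 and 72396 in wt and 109348 and 128278 in Hox-/- (−0.77), that of Sox5 at chr6:144387768-144388231 ranked 79033 and 91234 against 155246 and 133225 (−0.76), and that of Sox13 at chr1:133411415-133412125 ranked 11553 and 15652 against 18066 and 26876 (−0.71). In none of these 5 did the genotypes overlap. The windows of Sox21, Sox15, Sox5 and Sox13 each also held at least 1 region of the opposite order.

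Tbr1 is a T-box gene of glutamatergic neurons of the cortex, at chr2:61802863-61814114. Its strongest peak, 8985 bp before the gene, ranked 54813 and 63145 in wt and 29587 and 35457 in Hox-/- (log2 shift 0.86; two-sided p = 0.33 by the exact permutation test, its lowest value). Under the 9 alternatives the shift of the best peak lay between 0.39 and 0.99. The alternative that pairs libraries by replicate number cannot change a shift. The lowest value, in the gene body only, belongs to another peak, inside the gene. At the gene's start in the table the ranks were 154175 and 149816 in wt and 109694 and 107535 in Hox-/-. A region inside the gene ranked 76017 and 80021 in wt and 50404 and 70332 in Hox-/-. All 6 regions listed in all 4 libraries ranked higher in both Hox-/- libraries, with a median shift of 0.38. The same was seen in 5 of 6 as percent of the list and in 3 of 6 ranked by fold. Leaving out 1 library cannot undo such an order, so it gives no further check. The smallest shift, 0.09, was that of the weakest region.

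**Figure D4:**
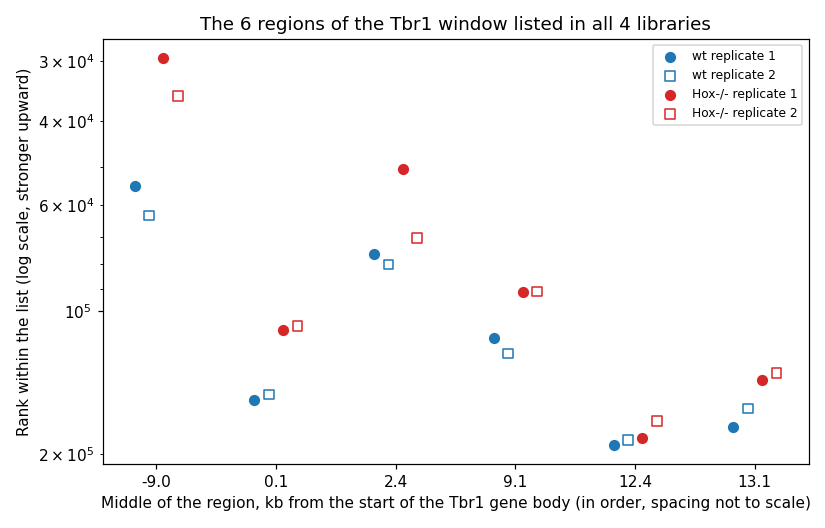
Rank within each list (y axis, log scale, stronger upward) of the 6 regions of the Tbr1 window listed in all 4 libraries, in order along the chromosome and labelled by the distance of their middle from the start of the gene body. In every region both Hox-/- points (red) lie above both wt points (blue).

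The surroundings of Tbr1 held the same order. Within 1 Mb outside its window, 70 regions listed in all 4 libraries had a median log2 shift of 0.44, and 58.6% ranked higher in both Hox-/- libraries while 2.86% ranked lower. Around the other 29 members the median shift of the surroundings lay between −0.07 and 0.10. The shift at Tbr1 was thus shared by its neighbours, and its cause was not tested. Without Tbr1, 33 of 184 member regions (17.9%) and 5 of 29 members (17.2%) ranked higher in Hox-/-. The surroundings of Tbx21, the other gene higher by all 3 of these measures, had a median shift of 0.05, and of its 7 regions 3 ranked higher and 1 lower. For Tbx4 and Gata1, with shifts of −0.66 and −0.51 of the best peak, the surroundings stood at −0.02 and 0.04.

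**Figure D5:**
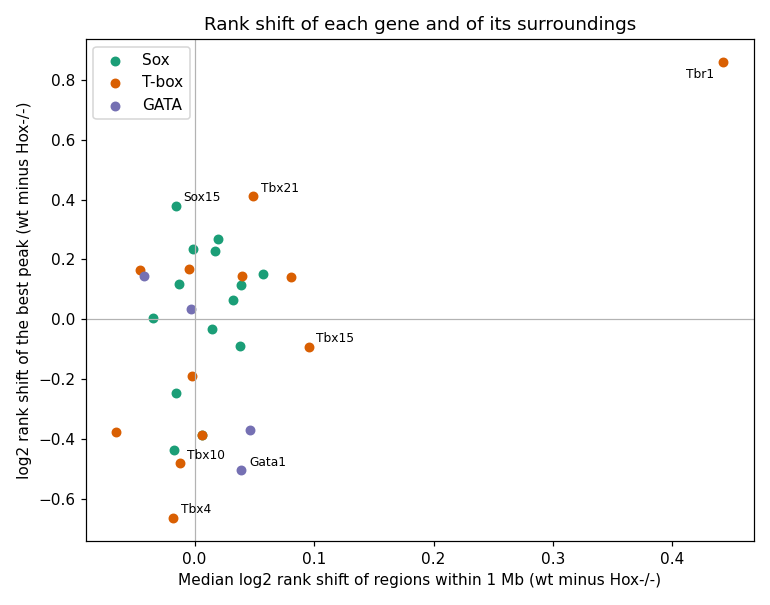
Log2 rank shift of the best peak of each of the 30 genes (y axis, positive where Hox-/- ranks are stronger) against the median shift of the regions listed in all 4 libraries within 1 Mb outside its window (x axis). Tbr1 alone lies to the right, at 0.44 and 0.86; the other surroundings lie between −0.07 and 0.10.

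The 13 other genes of the 3 families, among them Sox2, Eomes and Gata6, gave a comparison within the families. A gene-end peak was listed in all 4 libraries for 10 of the 13 and in no library for 3, against 26 and 3 of the 30 members. Over all genes the shares were 67.1% and 27.1%. No gene of either set had a gene-end peak in 1 genotype only. Of the 12 with a peak in the window in every library, 6 ranked higher in both Hox-/- libraries and 4 lower, against 6 and 8 of the 30 members. Of all genes with a peak in every library 20.7% ranked higher and 19.1% lower. The median best rank of these other genes was 42600 and 36493 in wt and 35165 and 26058 in Hox-/-, weaker than that of the members, 15986 and 13268 in wt and 13086 and 12682 in Hox-/-. All protein-coding genes with a peak in every library had medians of 11182 and 11152 in wt and 11061 and 11220 in Hox-/-. The lists were chosen by name and hold genes of different length and neighbourhood, so these medians are a description.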

How the data were processed

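The members and lists were chosen with earlier results of these data known. The deposited files are 1 peak list per library. Per the submitters' processing notes, build mm10 and the tools cutadapt 4.8, Bowtie2 2.5.0, Picard 2.18.2, bedtools 2.30.0, MACS2 2.2.9.1 and deepTools 3.5.4 were used, with no role or order given. From the values, each deposited line holds the authors' fold over background at the summit (a ratio), −log10 p and −log10 q, the latter never under 1.30, so weaker peaks are absent. Each line counted as a peak. The handling of duplicates and any shift for the transposase are not given in the sources used here. The deposited lists carry no reads, so a relative depth was taken from the background that the fold and p of a line imply under a Poisson model (its 0.1% quantile).

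Genes came from the RefSeq table of GRCm38.p6, which has no strand, so windows lie around both ends; all 30 members matched. Lines of the 4 lists were merged into regions at 1 bp of overlap. Calls need both libraries of 1 genotype to differ from both of the other. Python 3.11.15, numpy 2.4.6, pandas 2.3.3 and scipy 1.17.1 were used, and the scripts were tested on simulated lists. All members may be named; regions are the 3 strongest of each family, up to 10 per genotype listed in that genotype only, and the 3 with the largest shift in each direction. Regions named beyond these were chosen after their values were seen. Alternatives were windows, strength limits, ranking, scale, the replicate block and leaving out each library.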

Additional observations from a re-analysis of the deposited data

How the results depend on the processing

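With 2 libraries a genotype and no counts, nothing here passes a test, and presence in a list depends on a depth that differs between libraries. Of the alternative values of the summaries, 55 stayed within 1.5 times of a count or within the spread between libraries and 50 did not. The members with a gene-end peak in all 4 libraries stayed between 19 and 28 under every alternative run. They were 19 with 250 bp from an end (52.9% of all genes) and 28 with 2.5 kb (75.2%). Members with one in wt only stayed at 0 under every alternative run (0.397% to 1.54% of all genes). With the 100000 strongest lines, 1 member, Sox18, had a gene-end peak in Hox-/- only (0.361% of all genes). Regions listed in wt only were 4 with the 100000 and 4 with the 150000 strongest lines, against 14 (2.31% and 2.22% of all regions, against 3.82%). Regions in Hox-/- only were 2 with the 150000 strongest lines and 2 at a −log10 q of at least 5, against 4 (2.19% and 1% of all regions, against 1.23%). As percent of the list, regions higher in Hox-/- were 24 and in wt 69, and members higher in Hox-/- were 2. Ranked by fold, 10 members were higher in Hox-/-, against 6. In the gene body only, 4 members were higher in wt, and with 25 kb windows 4, against 8. The cause of these differences was not tested, except that fewer lines leave fewer regions.

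Median peaks per gene for Sox, T-box and GATA were 4.50, 4.50 and 3.5 with the 100000 strongest lines, 3.62, 5.75 and 4.25 in the gene body only, 12.8, 13.0 and 12.0 with 25 kb windows, and 5.75, 7.12 and 5.12 with overlapping lines merged. Median distal shares were 47.5% for Sox and 76.5% for T-box in the gene body only. With 25 kb windows they were 77%, 89.0% and 88.5%. With merged lines they were 72.8% for Sox and 87.2% for GATA, and with the 100000 strongest lines 81.6% for GATA.

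Among the 14 members whose best ranks did not overlap, the shift of the best peak changed sign for Sox21 ranked by fold (0.018), for Tbx1 (0.17) and Mga (0.34) in the gene body only, and with 25 kb windows for Sox15 (−0.089), Sox11 (1.06), Sox10 (−0.056) and Gata1 (0.14); a wider or narrower window can hold another best peak. Of the 16 members with overlap, 15 changed sign under at least 1 alternative, and Tbx5 did not.

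Leaving out 1 library loosens each call, so counts rise for members and all genes alike. Over the 4 libraries left out in turn, regions in wt only ranged from 20 to 30 and in Hox-/- only from 8 to 28 (28 without Hox-/- replicate 1, 17 without Hox-/- replicate 2, 9 without wt replicate 1, 8 without wt replicate 2). Regions higher in Hox-/- ranged from 65 to 77 (36.2% to 37.8% of all regions) and in wt from 66 to 72 (32.5% to 34.9%). Members higher in Hox-/- ranged from 10 to 11 (34.0% to 38.0% of all genes) and in wt from 11 to 12 (32.6% to 34.8%). Gene-end counts stayed at 26, 0 and 0.

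The replicate numbers did not pair the libraries (correlation of deviations 0.00367 over 122746 regions). With the replicate block, where both same-numbered pairs must keep 1 order, 8 members were higher in Hox-/- and 11 in wt (against 28.5% and 26.6% of all genes), and 55 and 59 regions (against 29.7% and 26.8% of all regions). Asking that a line cover 50% of the shorter of line and region changes nothing by construction. The alternatives that ask for 50% of the region (16 regions in wt only and 4 in Hox-/- only, against 4.81% and 1.45% of all regions, and 35 higher and 36 lower in Hox-/- by rank, against 21.9% and 19.2%) and that leave out Tbr1 were chosen after seeing the data.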
